A study of Mus musculus with 9 samples.

Results

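The genes described here are 44 genes of the cell cycle and of DNA replication, followed through a mouse mammary carcinoma line and both of its chemotherapy-selected derivatives. They fall into 3 classes by role, with 17 genes of G1/S and DNA replication, 19 genes of G2/M and mitosis and 8 regulators of G1. A gene was represented by its probe set with that gene as the only annotated symbol, taking the brightest over the 9 arrays where there were several, and 43 of the 44 genes were found among 19938 genes on the array. The cyclin gene Ccnb1 had no such probe set and was not analysed here.

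RNA came from 3 culture wells each of 4T1, MR20 and DR500, and each well gave 1 array. 4T1 is a transplantable mouse mammary carcinoma line and was left untreated. MR20 cells are the 4T1 cells that outlived methotrexate, a folate antagonist, given for up to 2 weeks and followed by 2 weeks without drug, at 20 µg/ml in the sample labels. The text of the study writes ng in place of µg for that dose. DR500 cells are the 4T1 cells that outlived doxorubicin, an anthracycline that acts on topoisomerase II, raised to 500 ng/ml. For DR500 the labels give selection of up to 2 weeks, and some of their fields name methotrexate, but the drug used here is the one of the protocol, doxorubicin. The text of the study instead gives 1 week at each of several rising doses, then 2 weeks in normal medium. The labels give no recovery time for DR500. All 3 groups therefore share the 4T1 background and differ in drug history. By the text of the study, no drug was present when the lines were compared. Each selected line is 1 population, so line and drug cannot be told apart. The labels call the arrays of 4T1 and MR20 biological replicates and those of DR500 only samples. The figure legends of the study speak of biological triplicates. The spread between wells may be technical, and the p-values below measure no more than that spread.

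Cells pass from G1 into S phase when D-type cyclins with Cdk4 or Cdk6, and then cyclin E with Cdk2, phosphorylate the retinoblastoma protein Rb1 and release E2F transcription factors. E2F factors switch on genes that license replication origins, build the replication fork and make deoxynucleotides. Later in the cycle, Foxm1 and the MuvB complex with B-Myb act on genes of G2 and mitosis, among them cyclin A and B, Cdk1, the Aurora and Polo-like kinases and the spindle checkpoint. Many promoters of this late class hold CCAAT boxes and a cell cycle genes homology region (CHR), whereas early promoters often hold E2F sites. In a growing carcinoma line these genes are transcribed in the cycling cells. In RNA from whole wells, fewer cells in a phase and less RNA per cell cannot be told apart. For MR20, the text of the study reports cycle phases measured by flow cytometry, with no difference in their distribution from the parent line. It also reports the proliferation marker Ki67 in nearly all cells of both lines. No measurement of phases or of Ki67 is given there for DR500. Growth in culture was slower in both selected lines than in the parent line, by the same text. For MR20 it also reports a higher proportion of apoptotic cells and a slower loss of a dye label. The study reads its results on MR20 as more apoptosis without slower cycle progression. A supplementary legend of the study nevertheless names slower proliferation of MR20. The bearing of those measurements on the RNA values below was not tested.

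The median log2 value over all 35556 probe sets lay between 6.24 and 6.38 on the 9 arrays, and no array was left out. The epithelial identity of DR500 differed from that of the other lines. Of 13 epithelial markers, 5 rose and 1 fell in MR20, whereas 11 fell in DR500, where the mean log2 value of the list lay between 7.69 and 7.89 against 10.8 on the 4T1 arrays. Epcam, an epithelial adhesion molecule, changed by -4.19 on the log2 scale in DR500 and Cdh1, E-cadherin, by -3.84, while the keratin gene Krt8 stood at mean log2 values of 13.41 in 4T1 and 13.43 in DR500. Among 12 fibroblast markers, 2 rose and 2 fell in MR20 and 4 rose and 1 fell in DR500. Their list means were 6.03 to 6.16 in 4T1, 6.05 to 6.12 in MR20 and 6.69 to 6.79 in DR500. In DR500, Fbln1 changed by 3.70, Pdgfra by 1.70, Acta2 by 1.68, Dcn by 0.56 and Postn by -0.97 on the log2 scale. In MR20, Postn changed by 1.34, Acta2 by 0.60, Fbln1 by -0.99 and Pdgfra by -0.63. Beside these marker counts, 15.4% of all genes rose and 17.1% fell in MR20, and 20.2% rose and 21.3% fell in DR500. Among 17 leukocyte markers measured, 3 rose and 1 fell in MR20 and 5 rose and 1 fell in DR500, and the list means were 5.77 to 5.84 in 4T1, 5.97 to 6.03 in MR20 and 6.12 to 6.23 in DR500. Ptprc, the pan-leukocyte marker CD45, had mean log2 values of 5.17, 5.18 and 5.24 in 4T1, MR20 and DR500 and passed no test against 4T1. Other genes of the leukocyte list changed, with Cd53 at 4.35, Ly6g at 2.51, Cd68 at 2.30 and Lcp1 at -4.79 on the log2 scale in DR500, and Cd14 at 1.42 and Cd68 at 1.23 in MR20. The 10 endothelial markers all had an adjusted p above the threshold, with log2 fold changes between -0.04 and 0.25 in DR500. The part of these marker shifts in the cell cycle results was not tested. Array batches are not stated, and the line DR500 and any batch of its own cannot be told apart.

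Cell cycle genes moved in both directions in both selected lines, and most stayed within 1.5-fold of 4T1. Their median absolute log2 fold change was 0.26 in MR20 and 0.34 in DR500, larger than the 0.13 and 0.19 over all genes. A gene was called at an adjusted p under 0.05 in limma, whatever its size. In MR20 against 4T1, 15 of the 43 members rose and 12 fell, where 15.4% of all genes rose and 17.1% fell. In DR500 against 4T1, 17 members rose and 11 fell, where 20.2% of all genes rose and 21.3% fell. This balance depended on scaling, since with quantile normalization repeated 30.6% of all genes rose and 18.9% fell in DR500, beside 21 and 9 members. In DR500 against MR20, 13 members were higher and 11 lower, where 21.2% of all genes were higher and 20.6% lower. In percent of the members, 34.9% rose and 27.9% fell in MR20, and 39.5% rose and 25.6% fell in DR500. These shares lay above those of all genes, many of which are dim on the arrays. Among the 11288 genes above a limit on dim values, 28.7% rose and 31.7% fell in MR20, beside 39.5% and 27.9% of the members, and 31.4% rose and 37.9% fell in DR500, beside 41.9% and 27.9%. This limit kept genes whose highest value over the 9 arrays was above the median of that value over all probe sets. A gene could thus pass through the line where it is high, and the genes kept were not matched in level to the members. Beside these brighter genes, the members' share of rises was higher and their share of falls lower in both lines, which is a description without a test.

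Beyond 2-fold, the cyclin gene Ccnd2 was the single member called in MR20 against 4T1, where 1.41% of all genes rose and 1.08% fell by that much. It was also the single member beyond 2-fold in DR500 against 4T1, where 2.47% of all genes rose and 3.09% fell. Between the selected lines, Cdk6 and Rb1 were higher and Ccnd2 and Pola1 lower in DR500 by over 2-fold, beside 2.87% of all genes that were higher and 3.23% that were lower. The remaining changes were smaller. Fold changes within 1.5-fold of 4T1 were found for 37 of 43 members in MR20 (86.0%) and for 36 in DR500 (83.7%), beside 91.7% and 84.9% of all genes. The standard errors of the members lay between 0.05 and 0.10 on the log2 scale, so that changes well under 1.5-fold could pass the test. The 95% confidence interval of the fold change stayed within 1.5-fold for 34 of 43 members in MR20 and for 27 in DR500. Over all 19938 genes it did so for 16596 in MR20 and 14836 in DR500, a larger share than among the members in both lines.

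**Figure D1:**
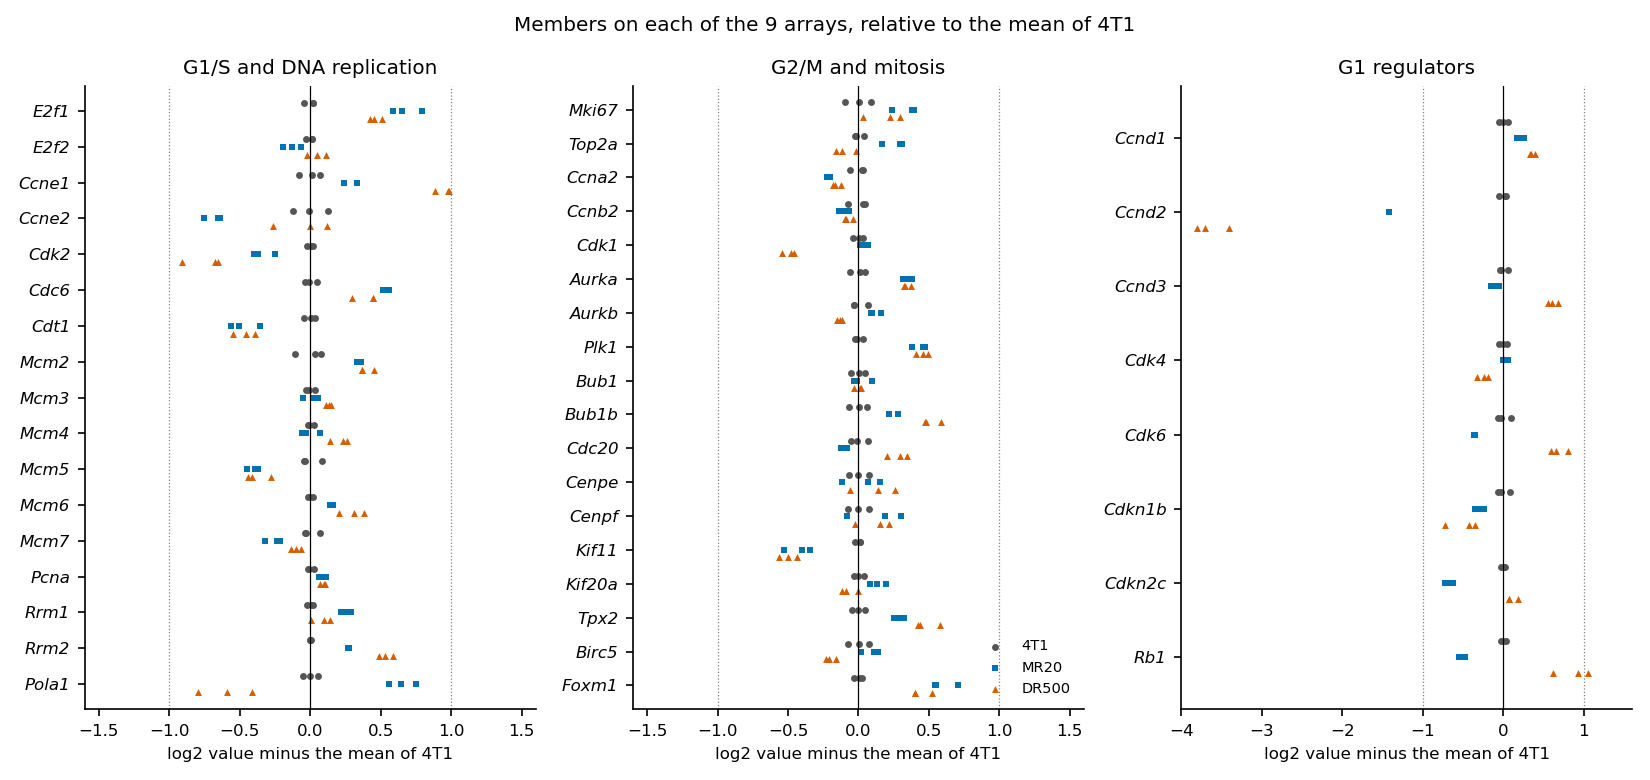
Log2 value of each measured member on each array minus the mean of the 4T1 arrays (horizontal axis), for the 3 classes, with grey circles for 4T1, blue squares for MR20 and orange triangles for DR500 and dotted lines at 2-fold. Most symbols lie inside the dotted lines, and Ccnd2, at -3.64 in DR500 on average, lies farthest from 0.

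The median log2 fold changes of the G1/S and G2/M classes were close to each other, but the G1/S members changed more in size. Median absolute log2 fold changes were 0.27 for G1/S and 0.17 for G2/M members in MR20, and 0.38 and 0.19 in DR500. The median log2 fold change of the G1/S members was 0.09 in MR20 and 0.09 in DR500 against 4T1, and that of the G2/M members was 0.12 and 0.06, beside medians over all genes of -0.01 and 0.07. In DR500 against 4T1 both class medians were close to that of all genes. Between the selected lines the medians were 0.05 for G1/S and -0.02 for G2/M, beside 0.07 over all genes. There, 12 of 17 G1/S and 7 of 18 G2/M members had positive values. Above the limit on dim values, the median over genes was -0.02 in both lines, and the class medians were unchanged. Both class medians lay above that value in both lines, which was not tested. By class, 7 of 17 G1/S members rose and 5 fell in MR20, and 7 of 18 G2/M members rose and 2 fell. In DR500, 7 G1/S members rose and 4 fell, and 6 G2/M members rose and 4 fell. All 18 G2/M members stayed within 1.5-fold in DR500 and 17 of them did in MR20. The 8 G1 regulators were spread more widely, with 1 rise and 5 falls in MR20 and 4 rises and 3 falls in DR500, and median log2 fold changes of -0.32 and 0.23. Both comparisons with 4T1 use the same 4T1 arrays, so their values are given side by side and their likeness is not evidence on its own.

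**Figure D2:**
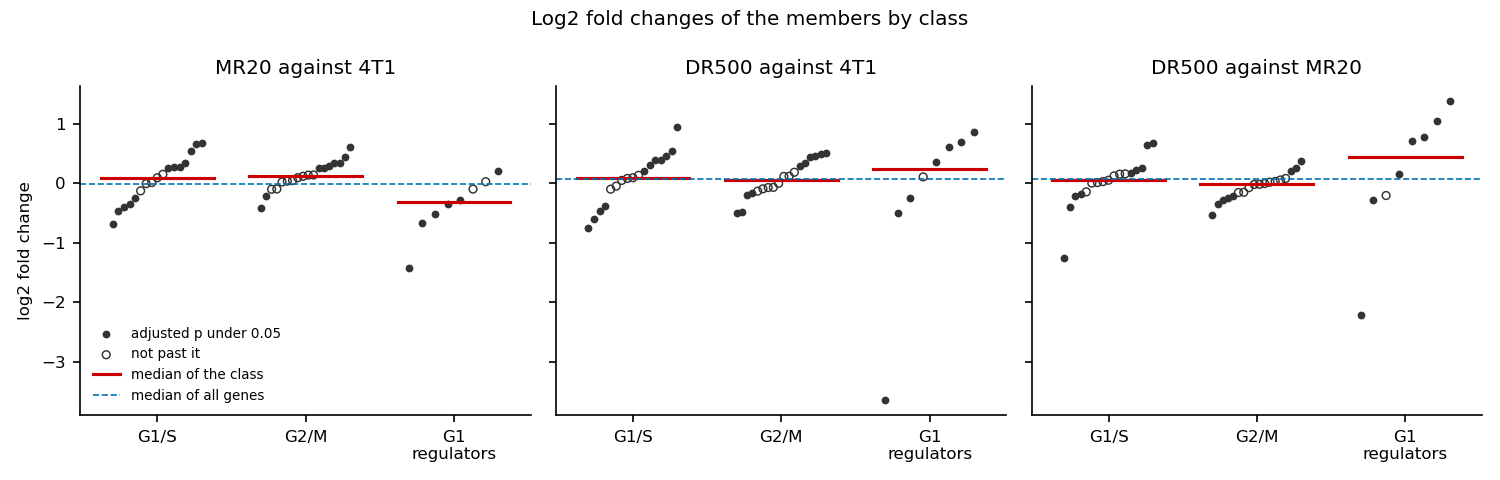
Log2 fold change (vertical axis) of each member by class and, from left to right, for MR20 over 4T1, DR500 over 4T1 and DR500 over MR20, with filled points for an adjusted p under 0.05, red bars for class medians and a dashed line for the median of all genes. The G1/S and G2/M medians lie near the dashed line, and the G1 regulators have medians of -0.32, 0.23 and 0.43 and the widest range.

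The D-type cyclins differed from each other. Ccnd2, which encodes cyclin D2, had log2 levels of 10.57, 10.65 and 10.64 on the 4T1 arrays, 9.20, 9.20 and 9.20 on the MR20 arrays and 7.21, 6.91 and 6.81 on the DR500 arrays. The lines did not overlap, with 4T1 highest and DR500 lowest. Its log2 fold changes were -1.42 (SE 0.09, adjusted p = 1.84e-06) in MR20 and -3.64 (SE 0.09, adjusted p = 9.36e-10) in DR500, which are 2.68-fold and 12.5-fold lower levels. Between the selected lines, Ccnd2 differed by -2.22 (SE 0.09, adjusted p = 2.33e-08). Ccnd3, which encodes cyclin D3, took the opposite course in DR500. On the log2 scale it measured 9.85, 9.77 and 9.76 in 4T1, 9.74, 9.64 and 9.69 in MR20, and 10.35, 10.39 and 10.47 in DR500. DR500 lay above both other lines, and Ccnd3 rose by 0.61 (SE 0.06, adjusted p = 1.42e-05) there, 1.53-fold. In MR20 its log2 fold change was -0.10 (adjusted p = 0.268), and DR500 exceeded MR20 by 0.71 (adjusted p = 4.4e-06). Ccnd1, which encodes cyclin D1, rose by 0.20 (adjusted p = 0.0172) in MR20 and by 0.36 (adjusted p = 0.000395) in DR500 on the log2 scale. The MR20 call of Ccnd1 was lost without array 2 or array 3 of 4T1 or array 1 of MR20, with an adjusted p of up to 0.0733.

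The kinases that partner the D-type cyclins also moved apart. Log2 levels of Cdk6 were 11.03, 10.90 and 10.87 in 4T1, 10.57, 10.59 and 10.57 in MR20, and 11.74, 11.53 and 11.59 in DR500. No arrays of different lines overlapped, and the order was DR500, 4T1, MR20. Cdk6 fell in MR20, with a log2 fold change of -0.36 (SE 0.07, adjusted p = 0.00271), and rose by 0.69 in DR500 (SE 0.07, adjusted p = 2.06e-05). DR500 stood 1.04 above MR20 (SE 0.07, adjusted p = 8.98e-07), or 2.06-fold. Cdk4 changed by -0.25 in DR500 (SE 0.06, adjusted p = 0.0051) and by 0.02 in MR20 (adjusted p = 0.838) on the log2 scale. That fall of Cdk4 reached an adjusted p of 0.0520 when each array was centred on its median.

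**Figure D3:**
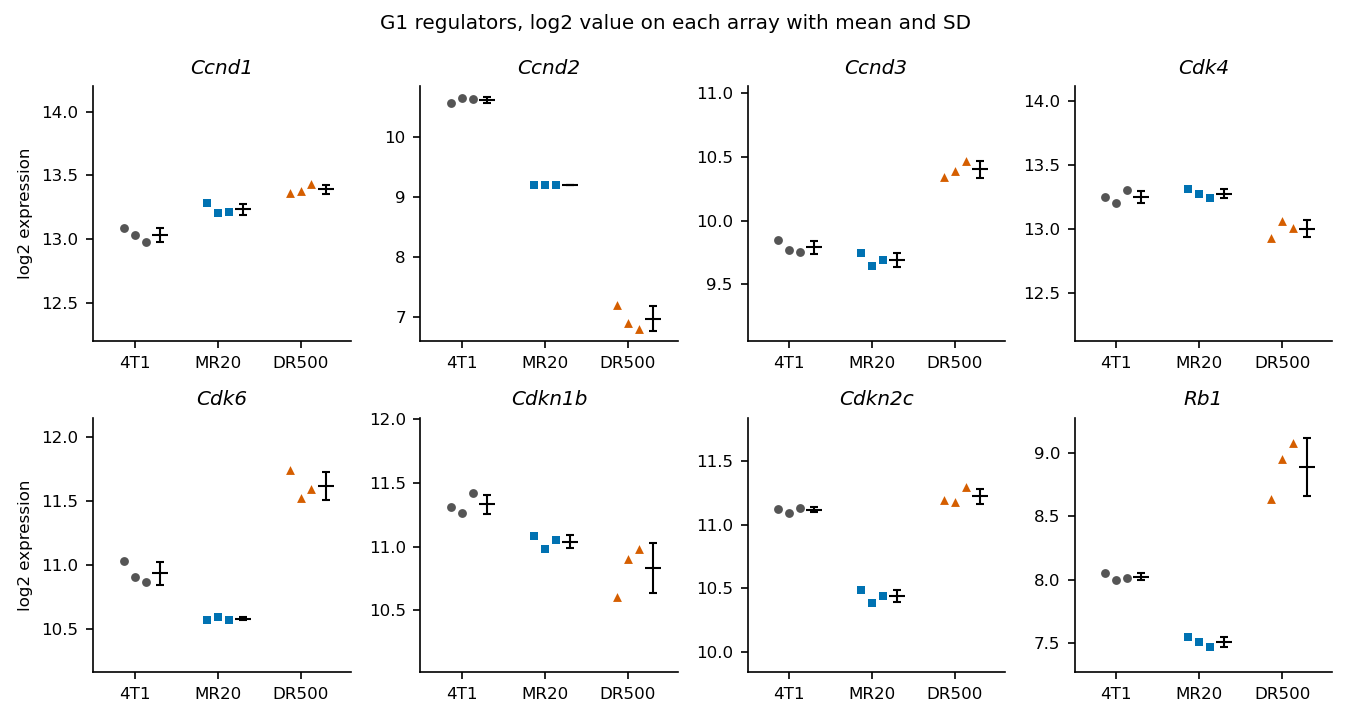
Log2 expression (vertical axis) of the 8 G1 regulators on each array, grouped by line, with the mean and SD of each line beside the points; all panels but that of Ccnd2 span the same number of log2 units. Ccnd2 steps down from 4T1 through MR20 to DR500, and Cdk6 and Rb1 are lowest in MR20 and highest in DR500.

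Rb1, the pocket protein that holds E2F factors in check, followed the same order of lines as Cdk6. It measured 8.053, 7.998 and 8.016 on the log2 scale in 4T1, 7.55, 7.51 and 7.47 in MR20, and 8.64, 8.95 and 9.08 in DR500. Every MR20 array lay below and every DR500 array above those of 4T1. The log2 fold changes of Rb1 were -0.51 (SE 0.10, adjusted p = 0.00217) in MR20 and 0.87 (SE 0.10, adjusted p = 4.15e-05) in DR500, and the lines differed by 1.38 (SE 0.10, adjusted p = 1.3e-06), or 2.6-fold. Cdkn2c encodes p18, an inhibitor of Cdk4 and Cdk6. Its log2 levels were 11.12, 11.09 and 11.13 in 4T1, 10.49, 10.39 and 10.44 in MR20, and 11.19, 11.18 and 11.29 in DR500. MR20 was the low line, with a log2 fold change of -0.68 (SE 0.06, adjusted p = 1.07e-05), and the value in DR500 was 0.11 (adjusted p = 0.166). DR500 exceeded MR20 in Cdkn2c by 0.78 (SE 0.06, adjusted p = 1.48e-06). Cdkn1b, which encodes the inhibitor p27, fell in DR500 with a log2 fold change of -0.50 (SE 0.09, adjusted p = 0.00138) and in MR20 with -0.29 (SE 0.09, adjusted p = 0.0358). The call in MR20 was lost on leaving out any 1 array of 4T1 or MR20 and with centred arrays, with an adjusted p of up to 0.126.

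Promoter sequences were looked up for the members in a RefSeq table of windows from 250 bases before to 50 bases after each gene's start (build GRCm38.p6). Of the 43 measured members, 33 had at least 1 window, with 37 windows in all, and Ccne2, Mcm4, Ccna2, Aurkb, Kif20a, Tpx2, Foxm1, Ccnd1, Ccnd2 and Rb1 had none. The windows were searched on both strands for E2F-type letters (TTTGGCGC, TTTCGCGC or TTTCCCGC), CHR-type letters (TTTGAA or TTCGAA) and the CCAAT box. An E2F-type match stood in 9 of 17 G1/S windows (52.9%), in 1 of 13 G2/M windows (7.7%) and in 1.8% of all 32851 promoter windows. A CHR-type match stood in 11 G2/M windows (84.6%), in 3 G1/S windows (17.6%) and in 19.2% of all windows. A CCAAT box stood in 76.5% of G1/S, 92.3% of G2/M and 42.9% of G1 regulator windows, beside 37.4% of all windows. In 1 window of Mcm7 an E2F-type match and a CCAAT box overlapped. Some windows start inside the gene, at a start other than the outermost one in the RefSeq gene table. With the 26 member windows within 50 bases of that outermost start, a restriction chosen after the matches were seen, E2F-type matches stood in 6 of 11 G1/S windows (54.5%) and 1 of 11 G2/M windows (9.1%), beside 1.7% of 22754 such windows of all genes. CHR-type matches stood in 9 of those G2/M windows (81.8%) and 1 of the G1/S windows (9.1%), beside 20.5%. A match describes letters in a window and is not evidence of binding.

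**Figure D4:**
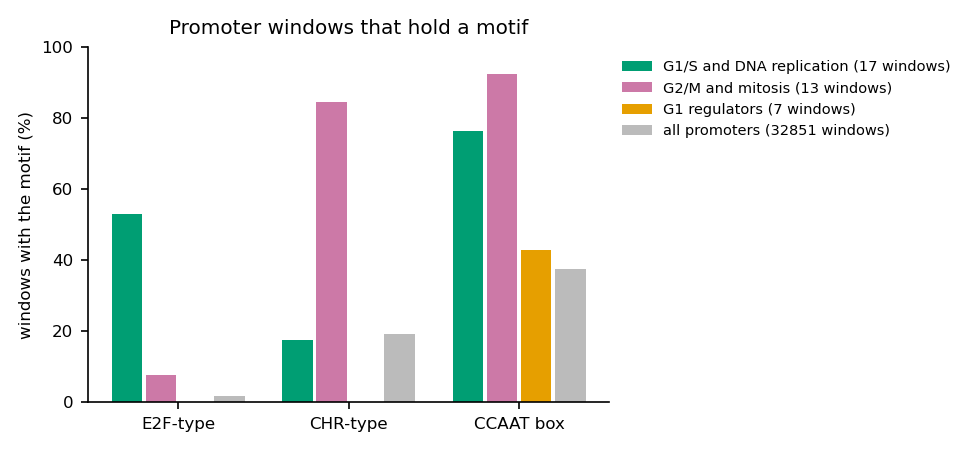
Percent of 300-base promoter windows (vertical axis) that hold an E2F-type match, a CHR-type match or a CCAAT box, for the G1/S, G2/M and G1 regulator members and for all promoters of the table. E2F-type matches reach 52.9% in the G1/S class and CHR-type matches 84.6% in the G2/M class, and the G1 regulator windows hold neither.

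Shown first are 3 windows of G1/S members, taken among windows whose start lies within 50 bases of the outermost start of the gene. Cdt1 had the largest called change of these in MR20 against 4T1, and Ccne1 and Cdk2 had the largest in DR500 against 4T1 and between the selected lines. The windows of E2f1, Cdc6 and Pola1, which changed more in at least 1 comparison, start 466, 442 and 232 bases inside their genes and are not shown. Each is given 5′ to 3′ on the gene's strand, and capitals mark motif matches. Cdt1 held an E2F-type match that began 32 bases after its start. Cdk2 held an E2F-type match on the opposite strand that began 140 bases before its start and a CCAAT box 45 bases before it. In the Ccne1 window none of the letters searched were found.
Cdt1, chr8:122567765-122568064, plus strand: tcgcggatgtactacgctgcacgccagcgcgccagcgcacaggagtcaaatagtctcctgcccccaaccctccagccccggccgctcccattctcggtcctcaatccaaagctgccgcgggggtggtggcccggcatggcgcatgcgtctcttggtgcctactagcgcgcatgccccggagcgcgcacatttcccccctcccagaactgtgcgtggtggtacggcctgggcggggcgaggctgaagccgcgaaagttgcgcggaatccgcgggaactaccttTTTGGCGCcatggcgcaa
Ccne1, chr7:38107441-38107740, minus strand: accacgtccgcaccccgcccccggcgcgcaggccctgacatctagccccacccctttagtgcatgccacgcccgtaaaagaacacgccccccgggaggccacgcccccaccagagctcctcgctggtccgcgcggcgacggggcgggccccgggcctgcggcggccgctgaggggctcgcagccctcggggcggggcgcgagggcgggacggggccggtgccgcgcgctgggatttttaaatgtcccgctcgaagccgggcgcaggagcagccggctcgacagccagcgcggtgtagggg
Cdk2, chr10:128705002-128705301, minus strand: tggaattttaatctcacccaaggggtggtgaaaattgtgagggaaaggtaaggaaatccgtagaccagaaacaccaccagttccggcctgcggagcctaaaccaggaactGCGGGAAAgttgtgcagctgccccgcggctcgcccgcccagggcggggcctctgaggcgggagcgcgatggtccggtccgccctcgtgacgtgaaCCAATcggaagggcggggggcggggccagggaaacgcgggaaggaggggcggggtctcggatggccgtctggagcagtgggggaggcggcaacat

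Among the factors that start S phase, E2f1 and Ccne1 rose in both lines and Cdk2 fell. E2f1, the activating E2F factor, had log2 levels of 9.93, 9.87 and 9.94 in 4T1, 10.71, 10.57 and 10.50 in MR20, and 10.42, 10.37 and 10.34 in DR500. The 4T1 arrays were lowest and the MR20 arrays highest. The rise was 0.68 (SE 0.06, adjusted p = 2.77e-05) in MR20 and 0.46 (SE 0.06, adjusted p = 0.000192) in DR500 on the log2 scale, or 1.6-fold and 1.38-fold. DR500 differed from MR20 by -0.21 (adjusted p = 0.0227), a call lost without array 1 of MR20, array 2 or 3 of DR500 or all of 4T1, with an adjusted p of up to 0.0852 over all settings. E2f2, another activating E2F, had log2 fold changes of -0.13 (adjusted p = 0.133) and 0.05 (adjusted p = 0.562).

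The cyclin E genes did not move together. For Ccne1, cyclin E1, log2 values were 9.45, 9.36 and 9.51 in 4T1, 9.68, 9.77 and 9.68 in MR20, and 10.33, 10.42 and 10.42 in DR500. The lines stepped upward from 4T1 through MR20 to DR500 with no overlap. Ccne1 rose by 0.27 (SE 0.06, adjusted p = 0.00654) in MR20 and by 0.95 (SE 0.06, adjusted p = 8.61e-07) in DR500, which is 1.93-fold, and DR500 exceeded MR20 by 0.68 (adjusted p = 8.92e-06). Ccne2, cyclin E2, read 9.43, 9.54 and 9.67 in 4T1, 8.79, 8.89 and 8.90 in MR20, and 9.28, 9.66 and 9.54 in DR500 on the log2 scale. Here MR20 was low, while the arrays of 4T1 and DR500 overlapped. Its log2 fold changes were -0.68 (SE 0.10, adjusted p = 0.000395) in MR20 and -0.05 (SE 0.10, adjusted p = 0.712, 95% interval -0.27 to 0.17) in DR500, and DR500 lay 0.63 above MR20 (adjusted p = 0.000435). Cdk2, the kinase partner of cyclin E, measured 10.00, 9.96 and 9.99 in 4T1, 9.73, 9.58 and 9.61 in MR20, and 9.07, 9.33 and 9.30 in DR500. It was highest in 4T1 and lowest in DR500 on every array. The fall of Cdk2 amounted to a log2 fold change of -0.34 (SE 0.08, adjusted p = 0.00577) in MR20 and -0.75 (SE 0.08, adjusted p = 2.14e-05) in DR500, with -0.40 (adjusted p = 0.00157) between the lines.

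**Figure D5:**
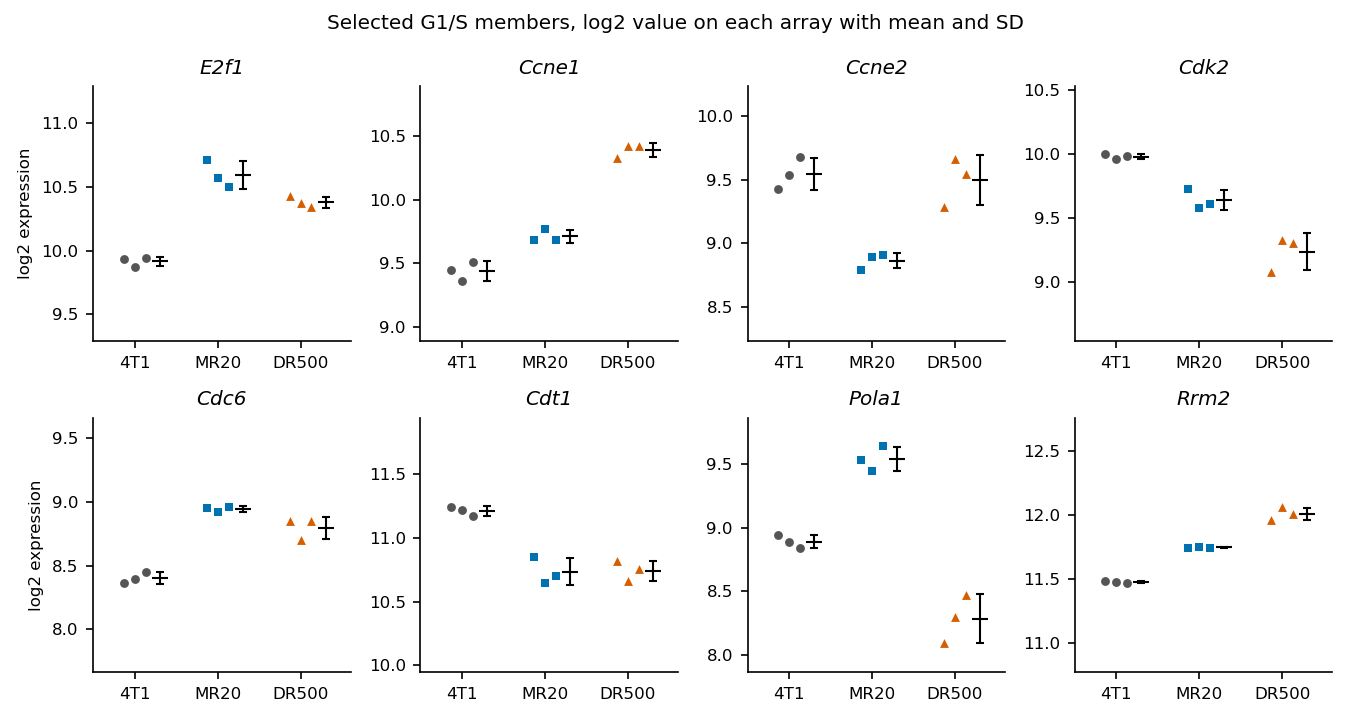
Log2 expression (vertical axis) of 8 G1/S members on each array, grouped by line, with the mean and SD of each line beside the points; each panel spans the same number of log2 units. Ccne1 is highest in DR500, Ccne2 is lowest in MR20, and Pola1 is highest in MR20 and lowest in DR500.

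Origin licensing factors split as well. Cdc6, which loads the MCM helicase onto origins, read 8.36, 8.39 and 8.45 in 4T1, 8.95, 8.92 and 8.96 in MR20, and 8.85, 8.70 and 8.85 in DR500 on the log2 scale. Both selected lines lay above 4T1. Cdc6 rose by 0.54 (SE 0.06, adjusted p = 6.95e-05) in MR20 and by 0.40 (SE 0.06, adjusted p = 0.000327) in DR500. Cdt1, its partner in licensing, fell in both, with log2 fold changes of -0.48 (adjusted p = 0.00041) and -0.47 (adjusted p = 0.000292). The MCM subunits form 1 helicase, yet their transcripts did not share a direction. In MR20, Mcm2 rose by 0.34 while Mcm5 and Mcm7 fell, at -0.40 and -0.26, and Mcm3, Mcm4 and Mcm6 had log2 fold changes of 0.01, -0.01 and 0.15 that passed no test. In DR500, Mcm2, Mcm4 and Mcm6 rose by 0.39, 0.21 and 0.30, Mcm5 fell at -0.38, and Mcm3 and Mcm7 had values of 0.13 and -0.10 that passed no test. Each of these 6 subunits stayed within 1.5-fold in both lines.

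Pola1, the catalytic subunit of the polymerase that primes each new strand, had the largest difference between the selected lines in its class. Log2 levels were 8.94, 8.89 and 8.84 in 4T1, 9.53, 9.44 and 9.64 in MR20, and 8.09, 8.30 and 8.47 in DR500. All MR20 arrays lay above those of 4T1 and all DR500 arrays below. Pola1 rose by 0.65 (SE 0.09, adjusted p = 0.000375) in MR20 and fell in DR500, at -0.60 (SE 0.09, adjusted p = 0.000392), so that DR500 differed from MR20 by -1.25 (SE 0.09, adjusted p = 1.94e-06), or 2.38-fold. The other subunits of that complex gave values of their own. Pola2 had log2 fold changes of -0.21 (adjusted p = 0.0222) in MR20 and -0.39 (adjusted p = 0.000355) in DR500, Prim1 of -0.05 (adjusted p = 0.762) and -1.05 (adjusted p = 1.81e-06), and Prim2 of 0.03 (adjusted p = 0.81) and 0.05 (adjusted p = 0.573).

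Of the deoxynucleotide and clamp genes among the members, Rrm2 rose most. Further deoxynucleotide genes outside the members went both ways. Tk1 fell in MR20 and DR500, at -0.42 and -0.26, and Tyms fell in MR20, at -0.39, while Dut rose in DR500 by 0.22. Rrm2 encodes the small subunit of ribonucleotide reductase, which makes deoxynucleotides, and its log2 levels were 11.48, 11.47 and 11.47 in 4T1, 11.75, 11.75 and 11.74 in MR20, and 11.96, 12.06 and 12.01 in DR500. The order was the same as for Ccne1, without overlap. The rise was 0.27 (SE 0.05, adjusted p = 0.00197) in MR20 and 0.54 (SE 0.05, adjusted p = 1.27e-05) in DR500, or 1.21-fold and 1.45-fold. Rrm1, the large subunit, rose by 0.26 (adjusted p = 0.00509) in MR20, with 0.08 (adjusted p = 0.291) in DR500. Pcna, the sliding clamp of the fork, had log2 fold changes of 0.09 in both lines, with 95% intervals of -0.02 to 0.20 in each, inside 1.5-fold.

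The G2/M windows shown are those of the members with the largest called change in MR20 (Plk1), in DR500 (Bub1b) and between the selected lines (Cdk1), among members that had a window. Capitals again mark the matches. Plk1 held a CCAAT box that began 14 bases before its start and a CHR-type match 30 bases after it. Bub1b held CHR-type matches 188 bases before and 40 bases after its start and a reversed CCAAT box at 113 bases before it. Cdk1 held CHR-type matches at 71 and 15 bases before the start, reversed CCAAT boxes at 208, 80 and 48 bases before it and the single E2F-type match of this class, at 131 bases before it.
Plk1, chr7:122159185-122159484, plus strand: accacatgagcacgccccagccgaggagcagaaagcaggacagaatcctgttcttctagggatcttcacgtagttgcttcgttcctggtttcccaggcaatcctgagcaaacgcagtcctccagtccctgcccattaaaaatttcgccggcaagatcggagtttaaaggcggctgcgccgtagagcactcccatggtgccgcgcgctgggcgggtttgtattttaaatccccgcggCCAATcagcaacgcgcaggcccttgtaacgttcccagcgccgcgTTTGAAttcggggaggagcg
Bub1b, chr2:118597961-118598260, plus strand: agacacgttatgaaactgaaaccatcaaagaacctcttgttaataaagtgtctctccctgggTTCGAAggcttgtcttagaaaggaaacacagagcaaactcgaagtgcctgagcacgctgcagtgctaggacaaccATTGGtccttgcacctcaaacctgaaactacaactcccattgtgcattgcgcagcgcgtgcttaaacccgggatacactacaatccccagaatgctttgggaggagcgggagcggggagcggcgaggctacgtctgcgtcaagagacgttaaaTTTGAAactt
Cdk1, chr10:69352863-69353162, minus strand: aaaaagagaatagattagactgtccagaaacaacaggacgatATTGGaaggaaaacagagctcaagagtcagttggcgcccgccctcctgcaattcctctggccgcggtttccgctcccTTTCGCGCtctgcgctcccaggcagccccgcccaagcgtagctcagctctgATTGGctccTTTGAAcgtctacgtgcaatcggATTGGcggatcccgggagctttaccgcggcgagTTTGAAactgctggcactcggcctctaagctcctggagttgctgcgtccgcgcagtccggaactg

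Foxm1, the transcription factor of this class, rose in both lines. It read 10.34, 10.35 and 10.30 on the log2 scale in 4T1, 11.04, 10.88 and 10.87 in MR20, and 10.73, 10.73 and 10.85 in DR500. Arrays of both selected lines lay above those of 4T1. The rise of Foxm1 was 0.60 (SE 0.06, adjusted p = 5.89e-05) in MR20, 1.52-fold, and 0.44 (SE 0.06, adjusted p = 0.000255) in DR500, 1.36-fold, and DR500 differed from MR20 by -0.16 (adjusted p = 0.0779).

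The mitotic kinases Plk1 and Aurka rose by like amounts in both lines. Plk1, which drives entry into mitosis, had log2 levels of 11.55, 11.51 and 11.50 in 4T1, 11.99, 11.97 and 11.90 in MR20, and 11.97, 11.92 and 12.01 in DR500. Both selected lines exceeded 4T1 and overlapped each other. Plk1 rose by 0.44 (SE 0.05, adjusted p = 0.000146) in MR20 and 0.45 (SE 0.05, adjusted p = 6.32e-05) in DR500, and the difference between them was 0.02 (95% interval -0.10 to 0.14). For Aurka, the Aurora kinase of the spindle poles, the arrays gave 10.86, 10.78 and 10.89 in 4T1, 11.22, 11.16 and 11.19 in MR20, and 11.21, 11.17 and 11.17 in DR500. The pattern was that of Plk1. Aurka rose by 0.35 (SE 0.05, adjusted p = 0.00064) and 0.34 (SE 0.05, adjusted p = 0.00047), with -0.01 (95% interval -0.13 to 0.11) between the selected lines. Tpx2, the spindle factor that activates Aurora A, rose with it, at log2 levels of 10.49, 10.40 and 10.44 in 4T1, 10.76, 10.69 and 10.73 in MR20, and 10.87, 10.88 and 11.02 in DR500. Its lines did not overlap and DR500 was highest. The rises of Tpx2 were 0.29 (adjusted p = 0.00448) in MR20 and 0.48 (adjusted p = 9.52e-05) in DR500.

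Cdk1 behaved otherwise. Cdk1 is the kinase that triggers mitosis, and it read 12.70, 12.74 and 12.77 in 4T1, 12.75, 12.78 and 12.81 in MR20, and 12.19, 12.28 and 12.26 in DR500 on the log2 scale. DR500 lay below both other lines, which overlapped. The log2 fold change of Cdk1 was -0.49 (SE 0.05, adjusted p = 3e-05) in DR500, 1.41-fold lower, and 0.04 (SE 0.05, adjusted p = 0.662) in MR20, and DR500 differed from MR20 by -0.54 (SE 0.05, adjusted p = 1.62e-05). Of its cyclins, Ccnb2 had log2 fold changes of -0.10 (adjusted p = 0.223) and -0.07 (adjusted p = 0.325), and Ccna2 fell slightly, at -0.21 (adjusted p = 0.0105) in MR20 and -0.16 (adjusted p = 0.0348) in DR500. The Ccna2 call in DR500 was lost under 10 of 17 alternative settings, among them repeated quantile normalization, centred arrays, the replicate block, a fit of the compared lines alone and a fit without array 1 or 2 of 4T1, array 2 or 3 of MR20, or array 1 or 2 of DR500, with an adjusted p of up to 0.243. In MR20 the Ccna2 call was lost without array 2 of 4T1 and with centred arrays.

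Of the members with a part in the spindle checkpoint, Bub1b and Cdc20 rose in DR500 and Bub1 passed no test. Bub1b, which encodes the checkpoint kinase BubR1, had log2 levels of 9.75, 9.70 and 9.63 in 4T1, 9.97, 9.97 and 9.91 in MR20, and 10.28, 10.16 and 10.17 in DR500. The lines stepped upward in that order without overlap. Bub1b rose by 0.26 (SE 0.06, adjusted p = 0.00671) in MR20 and 0.51 (SE 0.06, adjusted p = 5.12e-05) in DR500, and DR500 exceeded MR20 by 0.25 (adjusted p = 0.00587). Cdc20, the activator of the anaphase-promoting complex that the checkpoint restrains, read 10.97, 10.84 and 10.89 in 4T1, 10.81, 10.82 and 10.77 in MR20, and 11.20, 11.10 and 11.24 in DR500. DR500 was the highest line for Cdc20. It rose by 0.28 (SE 0.06, adjusted p = 0.00314) in DR500, with -0.10 (adjusted p = 0.279) in MR20 and 0.38 (SE 0.06, adjusted p = 0.000453) between them. The checkpoint kinase Bub1 passed no test, with log2 fold changes of 0.02 and -0.0031 and 95% intervals from -0.13 to 0.15.

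Kif11, the kinesin that pushes spindle poles apart, fell in both lines. Its log2 levels were 11.19, 11.19 and 11.15 in 4T1, 10.83, 10.64 and 10.77 in MR20, and 10.67, 10.61 and 10.74 in DR500. Arrays of 4T1 were highest and those of the selected lines overlapped. The log2 fold changes of Kif11 were -0.43 (SE 0.06, adjusted p = 0.000493) and -0.50 (SE 0.06, adjusted p = 9.82e-05). Kif20a, a kinesin of cytokinesis, had 0.14 (adjusted p = 0.106) in MR20 and -0.07 (adjusted p = 0.362) in DR500. The centromere proteins Cenpe and Cenpf had the widest spread in this class, with standard errors of 0.10, and passed no test, at 0.03 and 0.13 in MR20 and 0.11 and 0.12 in DR500.

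Top2a, topoisomerase II alpha, is the enzyme that doxorubicin traps on DNA. It measured 12.00, 11.95 and 11.94 on the log2 scale in 4T1, 12.27, 12.13 and 12.26 in MR20, and 11.81, 11.85 and 11.95 in DR500. MR20 was highest, and DR500 overlapped 4T1. Top2a rose by 0.26 (SE 0.06, adjusted p = 0.0093) in MR20, changed by -0.10 (SE 0.06, adjusted p = 0.259, 95% interval -0.24 to 0.05) in DR500 and was lower in DR500 than in MR20, at -0.35 (SE 0.06, adjusted p = 0.00103). A second probe set of Top2a, dim with a mean log2 value of 4.34 over the arrays, gave -1.38 in DR500 (adjusted p = 9.73e-05), so the probe sets disagree on that comparison. Birc5, which encodes survivin of the chromosomal passenger complex, read 9.95, 10.10 and 10.04 in 4T1, 10.14, 10.05 and 10.17 in MR20, and 9.82, 9.80 and 9.87 in DR500. DR500 was the lowest line. The log2 fold change of Birc5 in DR500 was -0.20 (SE 0.06, adjusted p = 0.024) against 4T1, a call lost without array 2 or 3 of 4T1 or array 2 of DR500 and under both rescalings of the arrays (adjusted p up to 0.146), and -0.29 (adjusted p = 0.00308) against MR20. Aurkb, the kinase of the same complex, had 0.12 (adjusted p = 0.153) in MR20 and -0.13 (adjusted p = 0.0756) in DR500, and -0.25 (adjusted p = 0.00383) between them. Mki67, the proliferation marker Ki-67, rose by 0.34 (SE 0.08, adjusted p = 0.00967) in MR20, 1.26-fold, with 0.18 (SE 0.08, adjusted p = 0.107) in DR500.

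Further cell cycle genes were counted in 4 lists by role. All genes fell slightly more often than they rose, 17.1% against 15.4% in MR20 and 21.3% against 20.2% in DR500. Above the limit on dim values, the shares were 31.7% against 28.7% and 37.9% against 31.4%. Between the selected lines, 21.2% of all genes were higher and 20.6% lower in DR500, and 32.3% and 36.7% above that limit. The lists are read beside these shares. Of 51 further replication origin and fork genes measured, 5 rose and 20 fell in MR20 and 9 rose and 20 fell in DR500, which is 9.8% and 39.2% of them in MR20 and 17.6% and 39.2% in DR500, with median log2 fold changes of -0.12 and -0.09. The largest changes in MR20 were Gins2, a subunit of the replicative helicase, at -0.82 (adjusted p = 0.000207), Wdhd1, a replisome adaptor, at -0.80 (adjusted p = 1.39e-05), and Cdc7, the kinase that fires origins, at -0.70 (adjusted p = 0.000173). In DR500 they were the primase gene Prim1 at -1.05 (adjusted p = 1.81e-06), Gins2 at -0.80 (adjusted p = 0.00014) and the chromatin remodeller Hells at -0.75 (adjusted p = 0.000228). Between the selected lines, 14 were higher and 9 lower in DR500, or 27.5% and 17.6% of the list. The largest differences were Prim1 at -1.01, the chromatin assembly subunit Chaf1a at 0.67 and Uhrf1, which maintains DNA methylation, at 0.64. These lists were chosen by name, and no test compared them with other genes.

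Of 58 further mitotic genes, 15 rose and 15 fell in MR20 and 16 rose and 22 fell in DR500, or 25.9% in each direction in MR20 and 27.6% and 37.9% in DR500. In MR20 the mitotic kinase gene Pbk changed most, at -0.79 (adjusted p = 1.93e-06), followed by Cenpa, the centromeric histone, at -0.58 (adjusted p = 3.04e-05) and the spindle protein gene Ckap2 at -0.52 (adjusted p = 0.000499). In DR500 the leading genes were the kinesin gene Kif20b at -0.76 (adjusted p = 8.46e-05), the centromere protein gene Cenpi at -0.72 (adjusted p = 3.61e-05) and the condensin subunit Smc4 at -0.70 (adjusted p = 3.15e-05). Between the selected lines, 17 were higher and 19 lower in DR500, or 29.3% and 32.8% of the list. The largest differences were the centromere protein genes Cenph at -0.92 and Cenpk at -0.80 and Fbxo5, an inhibitor of the anaphase-promoting complex, at -0.68.

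Among 20 further CDK inhibitors, pocket proteins and E2F family genes, 3 rose and 5 fell in MR20 and 3 rose and 6 fell in DR500, which is 15% of them up and 25% down in MR20 and 15% up and 30% down in DR500. The repressive E2F factors E2f4 and E2f5 fell in both lines, E2f4 at -0.57 (adjusted p = 0.00014) and -0.85 (adjusted p = 4.91e-06) and E2f5 at -0.49 (adjusted p = 0.000131) and -0.74 (adjusted p = 3.71e-06), and the third largest changes were Tfdp1, an E2F dimer partner, at -0.42 (adjusted p = 0.00145) in MR20 and Lin54 of the MuvB complex at -0.62 (adjusted p = 1.16e-05) in DR500. E2f6, another repressive factor, rose in both lines, by 0.27 (adjusted p = 0.00514) and 0.23 (adjusted p = 0.00972). Between the selected lines, 3 of the 20 were higher and 5 lower in DR500, or 15% and 25%. The largest differences were the inhibitor gene Cdkn2d at 0.68, E2f3 at -0.42 and the pocket protein gene Rbl1 at -0.40.

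Of 20 DNA damage checkpoint genes measured, 6 rose and 7 fell in MR20, 4 rose and 10 fell in DR500, and 2 were higher and 10 lower in DR500 than in MR20. That is 30% up and 35% down in MR20, 20% up and 50% down in DR500, and 10% higher and 50% lower between the selected lines. Wee1, the kinase that restrains Cdk1, rose by 0.70 (adjusted p = 5.39e-05) in MR20, where the checkpoint kinase gene Chek2 fell, at -0.65 (adjusted p = 0.000416), and the repair gene Brca1 rose by 0.62 (adjusted p = 9.47e-05). In DR500 the largest changes were Atr, the kinase that senses stalled forks, at -1.15 (adjusted p = 1.11e-06), the repair gene Brca2 at -1.10 (adjusted p = 1.56e-06) and Ccng1, a p53 target, at -0.95 (adjusted p = 7.31e-07). Those genes also led the difference between the selected lines, at -1.11 for Atr, -0.62 for Brca2 and -0.69 for Ccng1.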

How the data were processed

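RNA of 9 wells, 3 per line, had been hybridized to 1-colour Affymetrix whole-transcript mouse gene arrays. The authors corrected the background, normalized quantiles and summarised probe sets by robust multi-array averaging in affy, and the deposited values are on the log2 scale. The versions of affy, and whether all arrays were normalized together, are not given in the sources used here. Depth does not apply to arrays, whose number limits the precision. Of 35556 probe sets, 21789 carried 1 gene symbol, 1621 several and 12146 none, and 21698 were named by Entrez identifier. Where a gene had several (999 genes), its brightest was used, which left 19938 genes.

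All arrays entered 1 fit in limma 3.58.1 (R 4.3.3, with data.table at 1.17.8) with a mean per line, 6 residual degrees of freedom and empirical Bayes moderation. Benjamini-Hochberg adjustment ran over all genes within each of 3 comparisons, at a threshold of 0.05. With 3 arrays against 3, an exact permutation test of a single gene could not go below 0.1, so none was used. The script was tested on simulated data.

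Members, classes, further lists, markers and motifs were chosen with earlier results of these data known. Printed in full are the 4 members of each class with the largest called change in each comparison and any member called beyond 2-fold, and 3 genes of each further list. Other members, and Pola2, Prim2, Tk1, Tyms, Dut and the markers named, were added after their values were seen. Promoters and gene starts came from RefSeq (GRCm38.p6) and were read with pandas 2.3.3 in Python 3.11.15. The alternatives fitted only the lines under comparison, or used removal of dim genes, repeated quantile normalization, centring of arrays, the mean of a gene's probe sets, an intensity trend, array weights, a replicate block and leaving out each array.

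Deviations from the line mean in same-numbered arrays of different lines had correlations across genes between -0.309 and 0.327. Arrays with different numbers were not compared, so these values cannot decide whether the numbers pair the arrays. The main fit took no pairing, and the replicate block is given as an alternative.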

Additional observations from a re-analysis of the deposited data

Results flagged for a closer look

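For 24 of the 43 members, MR20 and DR500 differed in their change from 4T1, as limma's test of DR500 against MR20 shows, 13 higher and 11 lower in DR500, beside 21.2% and 20.6% of all genes. Among genes above the limit on dim values, 32.3% were higher and 36.7% lower, beside 16 and 13 members (37.2% and 30.2%). Both changes share the 4T1 arrays, which cancel in this difference.

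Pola1 rose in MR20 and fell in DR500, a difference of -1.25 on the log2 scale, while Rb1 (1.38) and Cdk6 (1.04) fell in MR20 and rose in DR500. Ccnd2 differed by -2.22, Cdkn2c by 0.78, Ccnd3 by 0.71, Ccne1 by 0.68 and Ccne2 by 0.63. Lower in DR500 were also Cdk1 (-0.54), Cdk2 (-0.40), Top2a (-0.35), Birc5 (-0.29), Cdk4 (-0.27), Aurkb (-0.25), E2f1 (-0.21), Kif20a (-0.21) and Rrm1 (-0.18). Higher in DR500 were Cdc20 (0.38), Rrm2 (0.26), Bub1b (0.25), Mcm4 (0.22), Tpx2 (0.20), E2f2 (0.18) and Ccnd1 (0.16). The call of Ccnd1 was lost under 11 of 17 alternative settings, that of E2f2 under 8, that of Rrm1 under 6, those of E2f1 and Tpx2 under 4 each and that of Kif20a under 1. The epithelial markers and the line's drug history moved with DR500 as well, and their part in these differences was not tested.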

How the results depend on the processing

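No member changed sign with a call under any of the 17 alternatives, counted over 2193 single-member results, of which 2089 kept their side of the threshold, 63 lost a call and 41 gained one. Called under every alternative were 23 of 27 members in MR20, 25 of 28 in DR500 and 18 of 24 between the selected lines. Calls of Ccna2, Birc5 and Cdk4 in DR500, of Ccna2, Ccnd1, Cdkn1b and Top2a in MR20, and of Ccnd1, E2f1, E2f2, Kif20a, Rrm1 and Tpx2 between the lines were lost under at least 1. Over the alternatives, 14 to 19 members rose and 10 to 12 fell in MR20, 17 to 21 rose and 8 to 12 fell in DR500, and 10 to 16 were higher and 9 to 13 lower in DR500 than in MR20. Of all genes, 12.5% to 28.7% rose and 13.7% to 31.7% fell in MR20. In DR500, 16.8% to 31.4% rose and 18.1% to 37.9% fell. Between the selected lines, 18.1% to 32.3% were higher and 18.3% to 36.7% lower in DR500. With repeated quantile normalization, 30.6% of all genes rose and 18.9% fell in DR500, so rises were 61.8% of all calls in place of 48.8%, while 21 members rose and 9 fell. With centred arrays 29.5% of all genes rose and 18.1% fell in DR500, so the rises were 62.0% of all calls, and 19 members rose and 8 fell. The median log2 fold change of the G1/S members became 0.17 with repeated quantile normalization and 0.15 with centred arrays in DR500, 0.13 under each in MR20, and 0.080 with repeated quantile normalization between the selected lines. The G2/M median in DR500 against 4T1 went from 0.06 to 0.10 and 0.11 under the same rescalings, beside a median over all genes of 0.12 under both. Between the selected lines the G2/M median went from -0.02 to 0.01 with repeated quantile normalization, beside 0.11 over all genes. The cause of these moves was not tested. With the replicate block, 15 members rose and 12 fell in MR20, 17 and 10 in DR500, and 12 and 11 between the lines. Of all genes, 14.8% rose and 16.6% fell in MR20 there, 19.8% and 20.8% in DR500, and 20.3% and 20.2% between the lines. Leaving out single arrays moved the G2/M median between 0.09 and 0.15 in MR20, 0.01 and 0.09 in DR500, and -0.09 and -0.01 between the lines.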
